A study of Drosophila melanogaster with 2 samples.

Results

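Binding of the zinc finger protein Crooked legs (Crol) was examined at 10 genes that drive or restrain the cell division cycle: stg, CycE, CycA, CycB, CycD, Cdk4, dap, Dp, Rbf and grp. They were taken by symbol from 18164 annotated genes on the 6 chromosome arms 2L, 2R, 3L, 3R, 4 and X (13945 protein-coding). A peak was assigned to a gene when its summit lay between 2 kb upstream of the most distal transcription start site (TSS) and the gene's end, and for stg also within 30 kb upstream. This gave 19 of the 9211 peaks of the authors' conservative list on dm6. The chromatin came from whole Drosophila melanogaster embryos of 0 to 24 h carrying crol fused to eGFP, precipitated with an antibody against GFP. All embryos carried the fusion, the collection spans all of embryogenesis and mixes all tissues, and the 2 libraries are biological replicates of 1 group. No untagged or input sample was analysed here, and a peak cannot be assigned to a cell type or stage.

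The cycle is run by cyclin-dependent kinases (Cdks). Cyclin E drives entry into DNA synthesis, and cyclins A and B drive mitosis. In the fly embryo, string (stg), a phosphatase that removes inhibitory phosphates from Cdk1, is transcribed in a changing spatial pattern that sets when cells divide, and its regulatory sequence extends far upstream of the gene. Cyclin D with Cdk4 promotes growth and phosphorylates Rbf, the retinoblastoma-family protein that holds E2F-Dp transcription factors in check. Dacapo (dap) inhibits cyclin E with its kinase, and grapes (grp), the fly checkpoint kinase Chk1, delays division while DNA is unreplicated or damaged. Crol is the product of an ecdysone-regulated gene and has been linked to proliferation of wing disc cells.

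Of the 10 genes, 7 had at least 1 conservative peak and 3 had none (CycA, CycD and Rbf). All 7 also had a summit within 500 bp of one of their own TSSs, here called a promoter peak. Among all protein-coding genes 28.4% had a peak in the same kind of region and 15.5% had a promoter peak. The 10 genes were chosen with earlier results of these data known, so this contrast was not tested. Cdk4 also has 5 TSSs and CycE, CycB, Dp and grp 3 each, and every TSS adds to the promoter window. The 19 peaks had joint signals from 60.8 to 607, in the authors' units, with a median of 152 against 113 for the whole list, and 11 of them were above that median. Of their summits 12 lay in an intron, 6 upstream of the gene and 1 in a 5' UTR, with none in coding sequence. These places were counted for the 19 only, so no contrast with the whole list can be drawn. Without the 30 kb extension for stg, 16 of the 19 summits remained. The signal is a peak height whose scaling is not stated, the number of reads behind it is unknown, and the joint signal was close to the sum of the replicate signals (median ratio 0.990 over these peaks).

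The sequence under the summits is shown first for stg, since all 4 of its summits had a run of at least 5 G or C, the feature that 53.1% of all conservative summits share. Each line gives 50 bp on either side of the summit from the RefSeq copy of dm6, on the plus strand, 5′ to 3′, while stg is read from the minus strand. Capitals mark runs of 5 or more G or C and, in the last line, also the letters CAGGTAG, the motif of the early embryonic factor Zelda.
stg, 21859 bp upstream (chr3R:29277609-29277709): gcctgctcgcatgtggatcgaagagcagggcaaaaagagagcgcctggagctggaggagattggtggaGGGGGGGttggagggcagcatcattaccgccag
stg, 12519 bp upstream (chr3R:29268269-29268369): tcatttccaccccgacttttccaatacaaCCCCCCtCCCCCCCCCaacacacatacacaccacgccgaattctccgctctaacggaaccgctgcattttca
stg, 2452 bp upstream (chr3R:29258202-29258302): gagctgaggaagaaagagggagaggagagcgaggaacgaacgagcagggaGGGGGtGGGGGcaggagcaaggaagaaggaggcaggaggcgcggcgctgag
stg, 253 bp upstream (chr3R:29256003-29256103): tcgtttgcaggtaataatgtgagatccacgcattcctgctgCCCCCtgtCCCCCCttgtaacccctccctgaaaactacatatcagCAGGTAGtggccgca

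For the strongest peak, that of CycE on 2L, capitals mark GAGAG, a motif of GAGA-binding factors, on the plus strand (the gene is on the minus strand), and no run of 5 G or C was present. For grp, on the plus strand of 2L, capitals mark a run of C at the summit near its distal TSS and, at the internal summit, the letters TTTNNCGC, an E2F-type motif.
CycE, 496 bp into the gene (chr2L:15747604-15747704): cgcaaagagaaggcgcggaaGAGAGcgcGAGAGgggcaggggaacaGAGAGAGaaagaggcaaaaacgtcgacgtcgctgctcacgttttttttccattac
grp, 303 bp into the gene (chr2L:16680307-16680407): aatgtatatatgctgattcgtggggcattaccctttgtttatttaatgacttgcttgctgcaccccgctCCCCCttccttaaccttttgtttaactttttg
grp, 5224 bp into the gene (chr2L:16685228-16685328): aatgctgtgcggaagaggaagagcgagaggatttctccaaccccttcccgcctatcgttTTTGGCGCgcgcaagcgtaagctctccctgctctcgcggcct

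All 4 conservative summits of stg lay outside the transcribed region, but that region is only 3975 bp of the 33975 bp searched. The gene is read from the minus strand of 3R, spans 29251826 to 29255800 and has 2 annotated TSSs. The strongest peak (29258060 to 29258379) had a joint signal of 332, higher than or equal to 89.1% of the conservative list, with replicate signals of 221 and 113. It lay 2452 bp upstream, and the nearest coding TSS was that of CG45544, at 1767 bp. The second (29268182 to 29268438), 12519 bp upstream, also reached 332, with replicate signals of 184 and 152, and no annotated gene covered its summit. The nearest coding TSS was again that of CG45544, 11834 bp away. These 2 upstream peaks were both stronger than the promoter peak of stg.

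The promoter peak (29255848 to 29256257) had a joint signal of 152, and replicate signals of 75.7 and 80.1, nearly equal. Its summit was 253 bp upstream of the distal TSS, so it no longer counted as a promoter peak with a 250 bp window. The summit was also within 500 bp of a TSS of CG45544, a coding gene on the plus strand that starts 685 bp upstream of stg. The peak therefore cannot be assigned to stg alone. The farthest peak (29277454 to 29277863), 21859 bp upstream, was weak at 66.4, with replicate signals of 29.4 and 45.8. It lay 551 bp from the start of the non-coding gene lncRNA:CR45568, and the nearest coding TSS, that of CG14506, was 19521 bp away. It was present in the thresholded list of replicate 2 but not in that of replicate 1. The ranked list between replicates, before the threshold, placed 45 summits along the stg region. The strongest of the 41 that were not in the conservative list had a signal of 55.6 and lay inside the gene, 519 bp past the distal TSS.

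**Figure D1:**
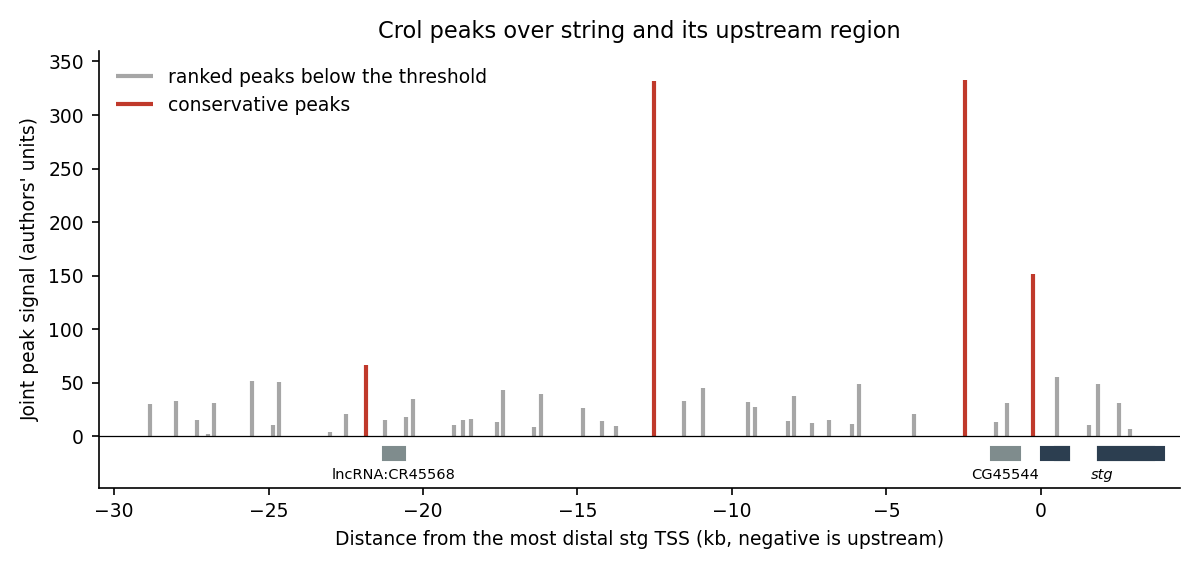
Joint signal (authors' units) of peaks over stg and 30 kb upstream, by distance from the most distal TSS in kb. Red lines are the 4 conservative peaks, grey lines the 41 ranked peaks outside the conservative list, dark boxes stg exons and grey boxes other genes. Both tall upstream lines (332 each) exceed the promoter peak of 152, and no conservative peak falls inside stg.

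A count of 4 summits in the 30 kb upstream was not rare. Of 13945 protein-coding genes, 25.6% had at least 4, with a median of 2 (quartiles 0 and 4) and a maximum of 23. The closest matches by count and summed signal (882 for stg) were SP1029, which lies downstream of stg and whose upstream window holds the same 4 peaks, and CG13837 and CG13838, which share a set of 4 peaks elsewhere on 3R (summed signal 883 for each). The region of stg therefore had an ordinary number of peaks for an upstream window of that length.

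Among the cyclins, CycE stood out by signal. This gene is read from the minus strand, spans 15727581 to 15748150 on 2L and has 3 TSSs. Its strongest peak (15747457 to 15747790) had a joint signal of 607, at or above 96.5% of the list, and the highest of the 19. The replicate signals were 326 and 282. The summit lay in an intron, 496 bp past the distal TSS and thus just inside the promoter window, and 347 bp from the start of an antisense RNA gene, asRNA:CR44866. The other CycE peaks were much weaker. One of 92.6 (15746622 to 15747031; replicate signals 63.1 and 28.03) lay 217 bp upstream of an internal TSS and inside lncRNA:CR44974. One of 102 (15744960 to 15745369; replicate signals 63.7 and 38.5) lay in an intron 1445 bp past the nearest TSS. The peak of 92.6 was in the thresholded list of replicate 1 and not in that of replicate 2. A further interval (15741714 to 15742123), 6231 bp into the gene, had 99.3 with the highest score in the optimal list. In the ranked list between replicates the same signal had a score of only 269, with replicate signals of 73.4 and 20.9, and it was not in the conservative list.

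The mitotic cyclins differed in the lists. CycB, on the minus strand of 2R from 22803521 to 22806948, had 1 peak (22806332 to 22806741) with a joint signal of 181 and replicate signals of 115 and 71.7. Its summit lay in an intron, 38 bp upstream of an internal TSS. CycA, a gene of 3L read from the minus strand (11826719 to 11833578), had no conservative peak. The optimal list, however, had a peak there of 159 with the highest score (11832502 to 11832911), 871 bp past the TSS. The thresholded list of replicate 1 had the same interval with 85.8, also at the highest score. In the list of replicate 2 before the threshold no peak overlapped it, and the strongest of 2 in the CycA region reached 14.6 with a score of 46. At CycA the replicates therefore disagreed.

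Cyclin D and its partner kinase also differed. Cdk4, on the plus strand of 2R from 16579470 to 16585448 with 5 TSSs, had 3 peaks, all inside the gene. The promoter peak (16579865 to 16580095) had a joint signal of 309 and replicate signals of 144 and 159, with its summit 115 bp upstream of an internal TSS. An intronic peak (16582003 to 16582412) had 140 and replicate signals of 75.2 and 59.9, inside the antisense gene asRNA:CR44375. The peak farthest into the gene (16583872 to 16584281) had 174 and replicate signals of 112 and 63.6. It too was intronic, and the nearest coding TSS was that of RpLP2, a ribosomal protein gene, at 2052 bp. CycD, on the minus strand of X from 15906822 to 15909676, had no peak in the conservative list, in the optimal list, or in the lists of each replicate and between replicates, ranked ones included. The nearest conservative summit was 94354 bp away, 141 bp from a TSS of scalloped (sd).

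**Figure D2:**
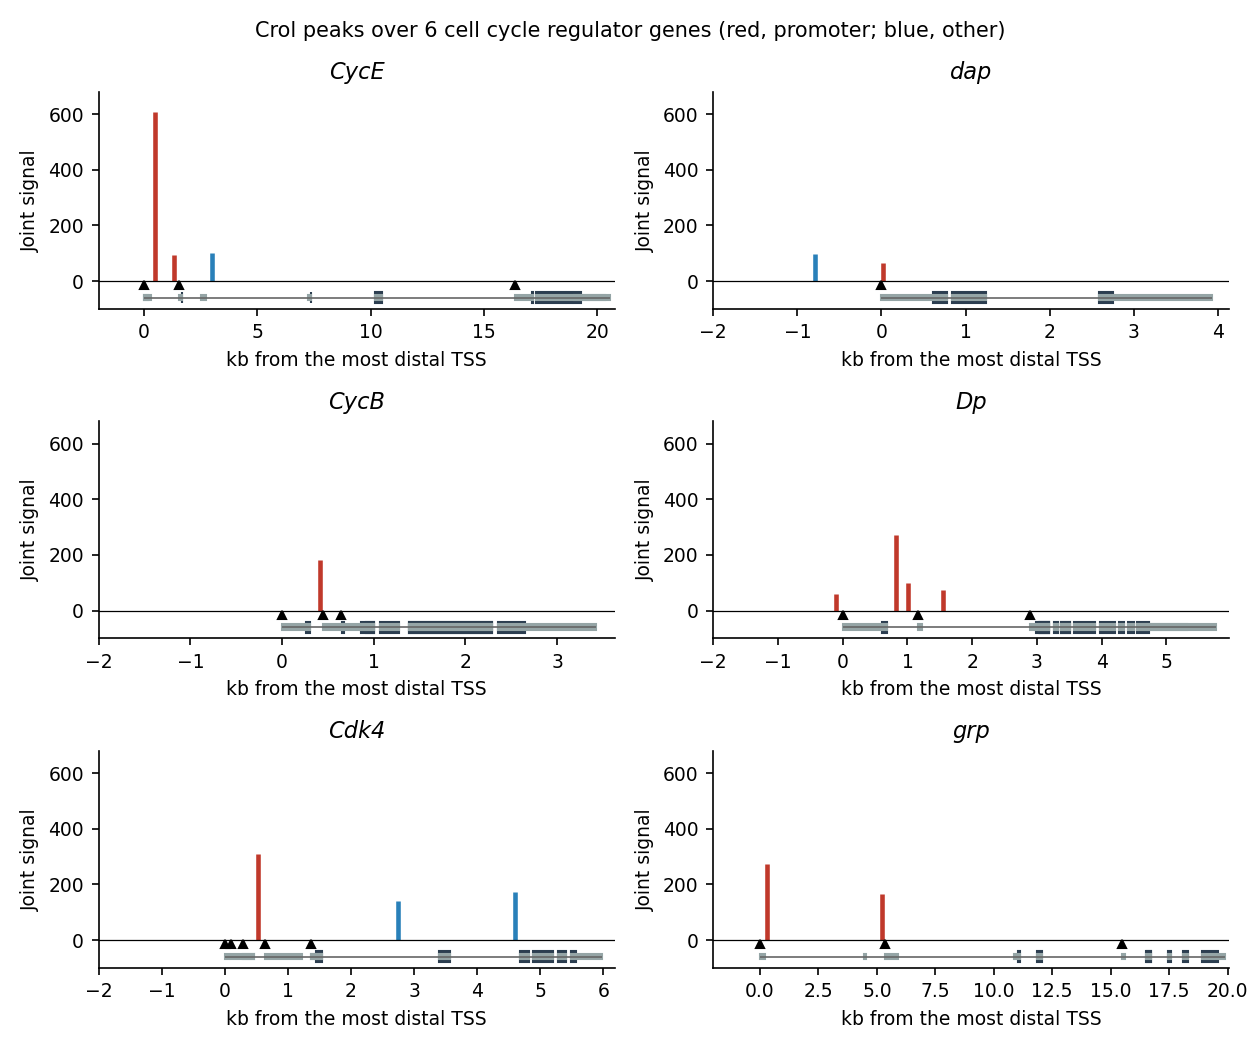
Joint signal (authors' units) of conservative peaks over CycE, CycB, Cdk4, dap, Dp and grp, by distance from the most distal TSS in kb. Red lines are promoter peaks (within 500 bp of an own TSS) and blue lines other peaks. Triangles are TSSs, grey boxes exons and tall dark boxes coding exons. The CycE peak of 607 is the tallest, and the blue lines are those of CycE (102), Cdk4 (140 and 174) and dap (98.7).

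The E2F branch showed peaks at Dp and none at Rbf. Dp, which encodes the dimer partner of E2F, lies on the plus strand of 2R from 13222433 to 13228202 and had 4 conservative summits, the most of the 10 genes when stg's extended region is counted only from 2 kb upstream. The strongest (13223058 to 13223540) had a joint signal of 271, with replicate signals of 145 and 125, 343 bp upstream of an internal TSS. The same interval held another summit of 98.0 (65.0 and 49.7), 143 bp upstream of that TSS. An intronic peak of 72.8 (13223777 to 13224186; 37.1 and 51.9) lay 391 bp past it. The weakest (13222126 to 13222535) had 60.8, with 29.5 and 36.05, and was in neither replicate's own thresholded list. Its summit was 102 bp upstream of Dp and 7 bp from a TSS of the neighbouring gene Fsn, so it cannot be assigned to one of the genes.

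Rbf, on the minus strand of X from 797090 to 801479, had no peak in any thresholded list. In the ranked list between replicates 7 summits fell on its region, the strongest with a signal of 33.06 and a score of 208, far below the lowest score of 830 in the conservative list. The nearest conservative summit was 17608 bp from the gene (signal 75.9), nearest to fz3, a Frizzled-family receptor gene. Both genes on the X, CycD and Rbf, were thus without peaks. From the length of their regions only 0.334 peaks were expected at CycD and 0.440 at Rbf, so having none was not unusual. These expected numbers use the density over all arms. The X arm had 82.5 conservative peaks per Mb, the highest of the 6 arms (59.04 on 3R, 63.8 on 2L, 71.6 on 3L, 73.3 on 2R and 5.93 on 4).

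The inhibitor and checkpoint genes each had 2 peaks. At dap (plus strand of 2R, 9712321 to 9716256) both were modest. The one of 98.7 (9711324 to 9711733; replicate signals 41.6 and 54.0) lay 792 bp upstream of the single TSS. The one of 65.2 (9712131 to 9712540; 39.2 and 34.2) had its summit 15 bp past the TSS, in the 5' UTR. Of these, the thresholded list of replicate 1 held neither and that of replicate 2 held the upstream one. A further summit, 1993 bp into dap, had 57.3 and a score of 809, just short of the conservative list.

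The grp gene (plus strand of 2L, 16680054 to 16699926) had narrow, stronger peaks. The first (16680267 to 16680453) had a joint signal of 273, with replicate signals of 184 and 88.9, 303 bp past the distal TSS. The germline gene squ also covers this summit and has a TSS 213 bp from it, so the peak cannot be assigned to one gene. The second (16685225 to 16685343) had 165, with 78.5 and 89.7, and lay 112 bp upstream of an internal TSS of grp.

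The replicates gave most of these peaks similar signals, but the conservative list keeps peaks by a score for reproducibility between replicates. Agreement among its peaks was therefore partly set by that choice. In the joint list 12 of 19 peaks had the higher signal in the first replicate column, with a median log2 ratio of first over second of 0.22 (from -0.64 to 1.17). Over all 9211 peaks the median was 0.28 (quartiles -0.01 and 0.55), and 74.1% were higher in the first column. The ratio stayed within a factor of 2 at 17 of 19 peaks, against 94.9% of all. The 2 exceptions were the CycE peak of 92.6 and the grp peak of 273, both lower in the second column. Of the 19, 14 overlapped a peak of each replicate's own thresholded list, 1 only of replicate 1, 2 only of replicate 2 and 2 of neither. This overlap was counted for the 19 only, so it cannot be set against the whole list. All of the peaks with a joint signal of 102 or more were in both lists. With 2 replicates the spread is known only from these pairs.

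**Figure D3:**
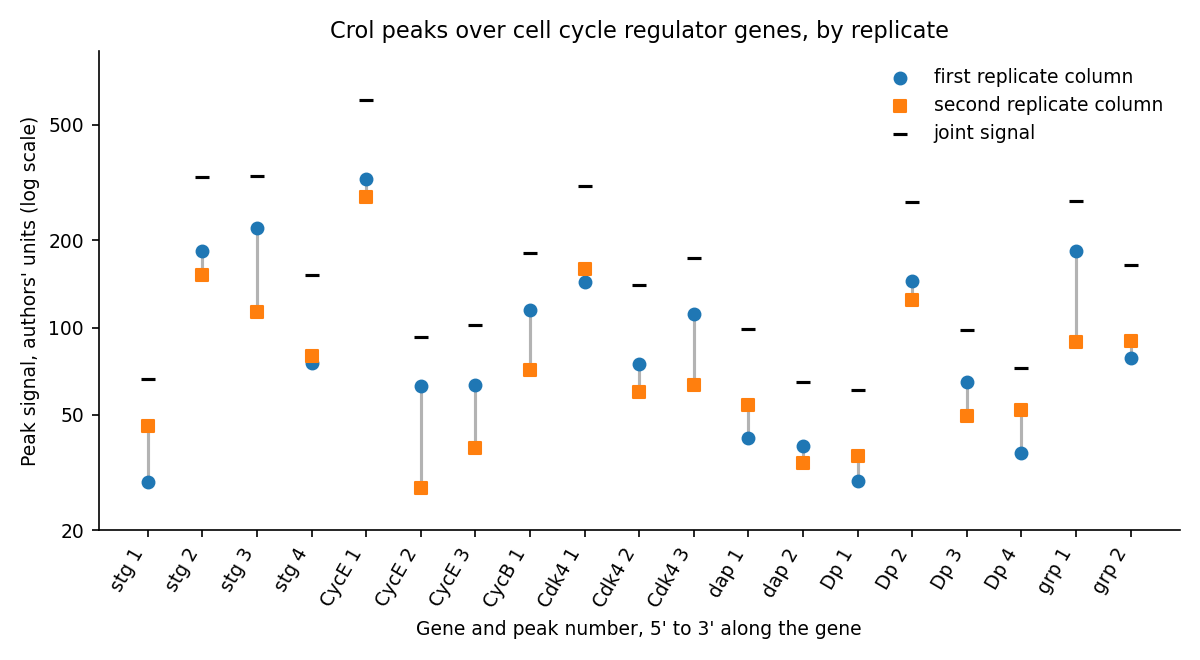
Signal (authors' units, log scale) of each of the 19 conservative peaks in the first and second replicate column and in the joint list. Peaks are numbered 5' to 3' along each gene, so stg 1 is the farthest upstream. The first CycE peak (326 and 282) is highest in both columns, and the pairs are farthest apart at CycE 2 and grp 1.

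The number of peaks per gene was compared with the number expected from length, by an exact one-sided Poisson test with Benjamini-Hochberg adjustment over 18164 genes. The tested region began 2 kb upstream and ran to the end of each gene, for stg too. Across the genome 132 genes (0.727%) passed at 0.05. None of the 10 cell cycle regulators did, although 2 had an unadjusted p under 0.05 (1011 of all genes had one). Dp was nearest, with 4 peaks against 0.535 expected (exact Poisson adjusted p = 0.156). Cdk4 had 3 against 0.549 (exact adjusted p = 0.513). CycE had 3 against 1.55, grp 2 against 1.505, dap 2 against 0.408, CycB 1 against 0.373 and stg 1 against 0.411 (exact adjusted p = 1 for each). CycA had no peak against 0.610 expected, CycD none against 0.334 and Rbf none against 0.440. Over the 10 alternatives the adjusted p of Dp ran from 0.0186 to 1. It passed in the list of replicate 1 alone, with 5 summits, while replicate 2 alone had 2. The count of 4 includes the pair in a single interval and the summit at a TSS of Fsn, which cannot be assigned to Dp alone. Without the upstream extension Dp had 3 peaks (exact Poisson adjusted p = 0.493). CycE had 6 summits in replicate 1 alone and 2 in replicate 2 alone (exact adjusted p = 0.164 and 1), and dap had 0 and 1.

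**Figure D4:**
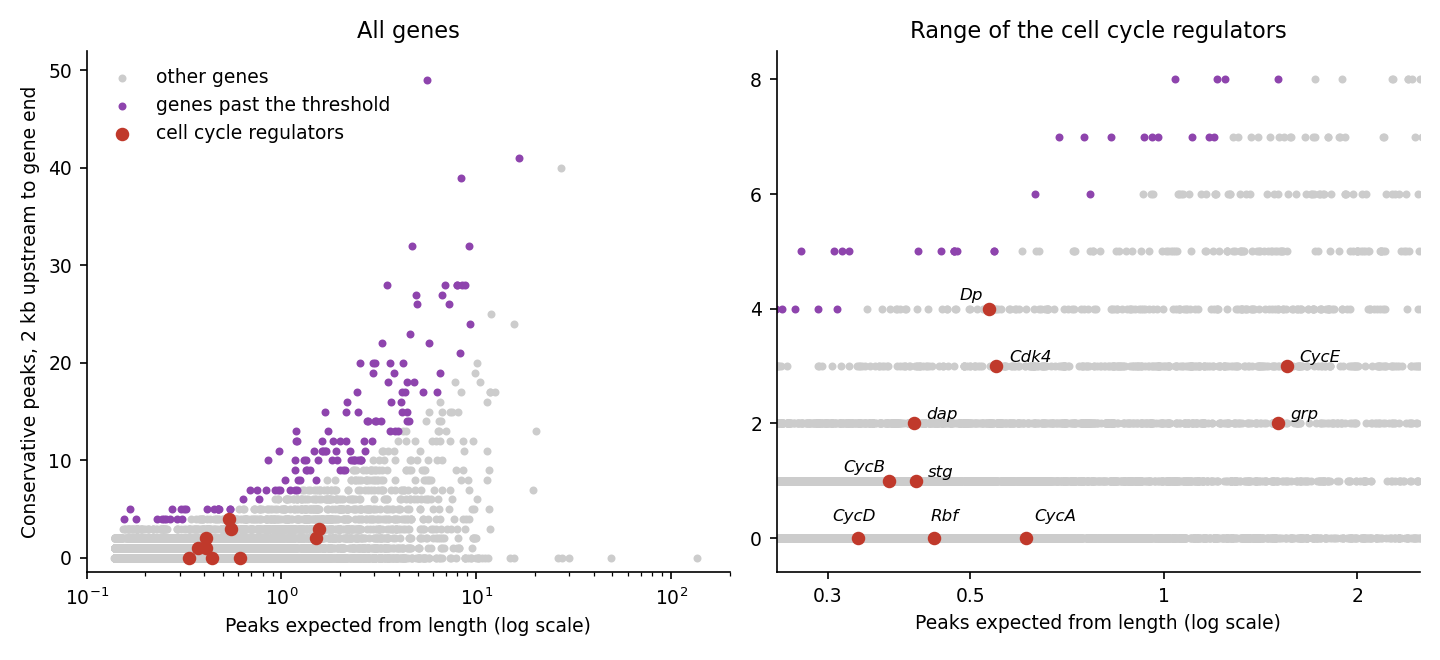
Conservative peaks in the tested region of each gene (vertical) against the number expected from length (horizontal, log scale), for all genes (left) and for the range of the cell cycle regulators (right). Purple points are the 132 genes past the threshold and red points the 10 cell cycle regulators. Dp (4 against 0.535) lies closest to the purple points, and no red point is among them.

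The summits were also compared by short sequences within 50 bp, searched on both strands. GGGGG was found at 11 of 19 (57.9%), near the 53.1% of all conservative summits. It was present at 4 of 4 summits of stg and 3 of 3 of Cdk4 and at 0 of 3 of CycE. The longest run at stg was 9, at the peak 12519 bp upstream, a length that 8.96% of all summits reach or exceed. The longest of all 19 was 10, at the Cdk4 peak of 140, reached or exceeded by 7.77% of all summits. Sequences of summits on 2R, those of Cdk4 among them, were not printed. Where a run was present, its middle lay a median of 10 bp from the summit, against 15.5 bp over all summits with one. GAGAG was found at 8 of 19 (42.1%, against 25.9% of all), and CACACA at 5 of 19 (26.3% against 13.9%). With 100 bp on each side of the summit the shares drew close: GAGAG was at 42.1% of the 19 and at 3774 of all 9211 summits, and CACACA at 31.6% against 27.6%. The Zelda motif CAGGTAG was at 1 of 19, the promoter summit of stg, and at 50 of all 9211 (0.543%). The E2F-type motif TTTNNCGC was at 2, one of Dp and one of grp (8.87% of all), and TATCGATA, the motif of the replication-related factor DREF, at 0 of 19 (0.369% of all). These shares rest on 19 summits, some in the same interval or gene, and were not tested.

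A wider list of 70 other genes, from cyclin, Cdk and cell cycle families, was set beside the 10. Its cyclins and Cdks were listed by name, and a role of each in the cycle was not checked. A promoter peak was found at 7 of 70 (10%), below the 15.5% of all protein-coding genes, and a peak in the region at 23 (32.9%, against 28.4%). The share with a promoter peak was 2 of 14 among other cyclins and kinases, 1 of 7 among activators and inhibitors of the kinases, 1 of 8 in the E2F and Rb group, 1 of 18 replication genes, 1 of 8 proteolysis genes, 1 of 8 checkpoint genes and 0 of 7 mitotic genes. The 5 strongest were at Cul1, a ubiquitin ligase scaffold (342), CycT (278), CycY (245), Cks85A, a Cdk-binding subunit (220), and RnrS, a subunit of the enzyme that makes deoxynucleotides (102). The count depended on both the window and the list. It was 3 with a 250 bp window and 13 with a 1000 bp window (4.29% and 18.6%, against 11.2% and 21.0% of all protein-coding genes). With the optimal list it was 12 (17.1% against 16.5%), no longer below the share of all, and above the median signal it was 4 (5.71% against 9.42%).

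Of the 70, 2 passed the test for many peaks, which 132 of all 18164 genes (0.727%) passed. E2f1, which encodes the activating E2F partner of Dp, had 12 peaks against 2.93 expected (exact Poisson adjusted p = 0.0114), with a weak promoter peak of 84.6. The gene fzr, an activator of the ligase that degrades mitotic cyclins, had 7 against 0.98 (exact Poisson adjusted p = 0.0142) and no promoter peak. E2f1 stayed past the threshold in 9 of 10 alternatives (adjusted p from 4.67e-04 to 0.773) and fzr in 6 of 10 (0.00378 to 0.408). In the list above the median signal neither passed. The count at fzr fell to 4 in each replicate's own list, where it did not pass (exact adjusted p = 0.397 in replicate 1 alone and 0.331 in replicate 2 alone), nor did it pass with the highest score alone.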

How the data were processed

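The authors deposited peak lists on dm6, ranked by the irreproducible discovery rate (IDR), per the file names and labels. The peak-calling program, like the aligner, is "not given in the sources used here". Each deposited signal is a peak height on a scale that the authors did not state, and the deposited score is a rescaled IDR of at most 1000 (lowest 830 in the conservative list). Signals of each replicate were read from the ranked list between replicates, whose columns are not named. At the 19 peaks the first column equalled the value in the thresholded list of replicate 1 in 14 of 15 cases and the second that of replicate 2 in 15 of 16. The exception in each is a peak with a pair of summits in 1 interval. Depth is unknown here because read counts were not used.

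Genes came from Ensembl release 115 and sequence from RefSeq, both of the dm6 assembly, and no peak passed the end of an arm. Transposable elements were left out. The Poisson test counted summits and took the expected number from region length and the density over the arms. It was run on simulated peaks spread evenly over the arms, without and with extra peaks planted in some genes. The test assumes evenly spread peaks, which these are not, so the simulation could not check it on peaks like these. P-values describe this list, not a spread between embryo collections. Python 3.11.15, numpy 2.4.6, pandas 2.3.3, scipy 1.17.1 and matplotlib 3.10.9 were used.

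Named were the 10 genes with each peak, the coding genes nearest to or covering a peak, the 5 wider-list genes with the strongest promoter peaks, those passing the test, and the 3 genes closest to stg by upstream count. Genes and lists were chosen with earlier results of these data known. The alternatives were other lists, windows and backgrounds. The ranked list along stg and the length of G or C runs were added after seeing the data, and sd and fz3 were named after their values were seen.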

Additional observations from a re-analysis of the deposited data

How the results depend on the processing

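No paired analysis was possible because there is 1 group. Leaving out a replicate means using the other's own list. Of 86 comparisons of the main counts and shares with an alternative, 78 stayed within 1.5 times the main count or within the counting interval of the share. That interval is wide for shares of 19 summits. Among the remaining comparisons, mostly peak counts of single genes, 108 stayed within 1.5 times and 22 did not. The 19 peaks became 11 in the part of the list above the median signal. The genes past the Poisson threshold numbered 199 with 5 kb upstream, against 132. With a replicate left out, 0 to 1 of the 10 regulators passed (Dp, in replicate 1 alone), and the share of summits with CAGGTAG ran from 0 to 6.67%, the summit at stg in the list of replicate 1 being 221 bp upstream, not 253. Wider-list genes with a promoter peak numbered 12 with the optimal list, 4 above the median signal, 3 with a 250 bp window and 13 with a 1000 bp window. Depth limits weak peaks: without read counts, a missing peak at CycD or Rbf shows only that none passed the thresholds, and CycA had a peak in the optimal list and in that of replicate 1.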
